A study of Mus musculus with 3 samples.

Results

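Neurons hold their internal chloride level with a pair of cation-chloride cotransporters, and this account follows their genes and the kinases that control them through RNA-seq counts of cultured mouse cortical neurons. The 7 genes were listed by name from known function, with earlier results of these data known. They are Slc12a2, which encodes the chloride importer NKCC1, Slc12a5, which encodes the chloride exporter KCC2, the WNK kinase genes Wnk1, Wnk2 and Wnk3, and Stk39 and Oxsr1, which encode the kinases SPAK and OSR1. All 7 were found among the 54232 gene identifiers in the count files, and all 7 were among the 13884 genes compared, which reached 1 CPM (1 count per 1000000 counts of the library) in at least 1 library. The question set by the rule for these genes was whether their levels, and the Slc12a5 to Slc12a2 ratio in particular, differed between culture substrates.

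The neurons were labelled wildtype CD1 cortical neurons, and neither animal age, days in culture nor animal numbers are known from the labels. One group was grown with IKVAV PA, a peptide amphiphile (a short peptide with a fatty tail that assembles into fibres) carrying the laminin-derived sequence IKVAV. The IKVAV PA + PEDOT-S library had a further component, which the title calls PS2 and the library name PEDOT-S_OH, and which is taken here to be the sulfonated conducting polymer PEDOT-S. The control library is labelled PDL, an abbreviation left unexplained in the labels. The treatment field reads the same for the control as for both scaffolds, so the groups rest on the titles and library names. Each group had 1 library, labelled repeat 3, with 78993105 to 124425958 counts. There was therefore no replicate and no test between groups, and every interval below is a 95% interval that covers counting error only.

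In immature neurons NKCC1 brings chloride in, so that opening of GABA-A receptors lets chloride leave and depolarises the cell. As neurons mature KCC2 becomes abundant and chloride falls, and GABA then hyperpolarises or shunts. The ratio of KCC2 to NKCC1 is for this reason used as a measure of maturation. WNK kinases are held inactive by chloride. When active they phosphorylate SPAK and OSR1, which in turn phosphorylate both cotransporters, switching NKCC1 on and KCC2 off. RNA levels do not show this phosphorylation.

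Slc12a5 lies on chromosome 2 from 164960802 to 164999731 on the plus strand of GRCm38 and has 10 annotated transcripts. RefSeq places 2 start sites of the gene 7142 bases apart, and the counts sum transcripts from both. The 2 upstream sequences are shown because Slc12a5 is the gene on which the results below turn. Each is written 5′ to 3′ on the plus strand of GRCm38.p6 from RefSeq and ends before the first annotated exon base. Capitals mark the E-box letters CACGTG, the motif of USF factors, which are known regulators of this gene.
First start, chr2:164960596-164960801: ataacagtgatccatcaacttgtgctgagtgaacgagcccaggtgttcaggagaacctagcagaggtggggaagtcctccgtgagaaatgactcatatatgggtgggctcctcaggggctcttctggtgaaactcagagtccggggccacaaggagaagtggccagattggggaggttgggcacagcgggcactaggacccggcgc
Second start, chr2:164967738-164967982: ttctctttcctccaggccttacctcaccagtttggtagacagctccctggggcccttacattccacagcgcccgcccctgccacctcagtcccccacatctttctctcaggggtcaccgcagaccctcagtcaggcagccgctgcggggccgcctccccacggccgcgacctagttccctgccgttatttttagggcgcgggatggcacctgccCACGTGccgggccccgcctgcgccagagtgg

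The E-box occurs once in the second sequence, from 164967952 to 164967957, and does not occur in the first. On either strand it occurs in 6.02% of the 32817 RefSeq windows of 250 bases before a start. A motif of EGR factors, GCGNGGGCG, searched because Egr4 is a known activator of Slc12a5, was found in neither sequence and in 4.70% of all windows. The E-box is its own reverse complement, and the motifs did not overlap. A match is a run of letters and not evidence of binding.

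Slc12a5 had the largest difference among the 7 genes between the scaffolds. It was highest in the IKVAV PA library and lowest in the IKVAV PA + PEDOT-S library, with the PDL control between them. Its counts were 22075, 9955 and 12010 in IKVAV PA, with PEDOT-S and in the control. Scaled to library size with trimmed-mean (TMM) factors, its level was 177 CPM, 127 CPM and 151 CPM in the same order. The log2 ratio was 0.23 for IKVAV PA against the control (interval 0.20 to 0.26), which is 1.17-fold higher. For IKVAV PA + PEDOT-S against the control it was -0.25 (interval -0.28 to -0.21), which is 1.19-fold lower. Between the scaffolds it was -0.48 (interval -0.51 to -0.44), so that Slc12a5 was 1.39-fold lower with PEDOT-S. None of the 3 differences reached 1.5-fold.

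Slc12a2, on chromosome 18, differed little. Its counts were 8545 in IKVAV PA, 5504 in IKVAV PA + PEDOT-S and 5763 in the PDL control, or 68.6 CPM, 70.3 CPM and 72.4 CPM. The log2 ratio was -0.08 for IKVAV PA against the control (interval -0.13 to -0.03). It was -0.04 for IKVAV PA + PEDOT-S against the control (interval -0.09 to 0.01) and 0.04 between the scaffolds (interval -0.01 to 0.09). The order of the 3 levels was the control highest and IKVAV PA lowest, and both scaffolds lay within 1.06-fold of the control.

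**Figure D1:**
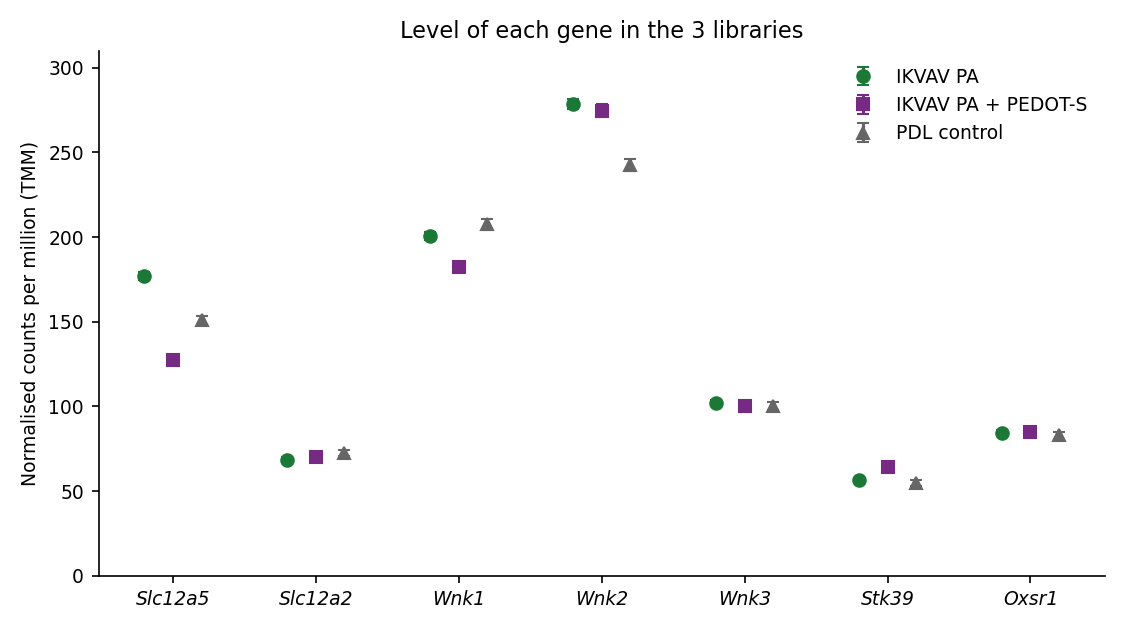
Normalised CPM (vertical axis, from 0) of the 7 genes in the 3 libraries, 1 point per library, with bars for the 95% counting interval. Slc12a5 stands at 177, 127 and 151 CPM in IKVAV PA, with PEDOT-S and in the control, whereas the points of Slc12a2, Wnk3 and Oxsr1 lie close together.

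The Slc12a5 to Slc12a2 ratio followed Slc12a5. This ratio is taken within a library, so it does not depend on how libraries are scaled. As counts it was 2.58 in IKVAV PA (interval 2.52 to 2.65), 1.81 in IKVAV PA + PEDOT-S (interval 1.75 to 1.87) and 2.08 in the PDL control (interval 2.02 to 2.15). Per kilobase of merged exons the ratio was 3.79, 2.65 and 3.06 in the same order, so KCC2 RNA exceeded NKCC1 RNA in every library. Compared between libraries, the ratio in IKVAV PA was 1.24 times that of the control (interval 1.19 to 1.29). In IKVAV PA + PEDOT-S it was 0.868 times that of the control (interval 0.829 to 0.909) and 0.700 times that of IKVAV PA (interval 0.672 to 0.730). The 3 counting intervals of the ratio do not overlap, but the spread between cultures was not measured. Taken as a maturation measure, the ratio was thus above the control in the IKVAV PA library and below it in the IKVAV PA + PEDOT-S library. After a correction for gene length and GC content, chosen after seeing the data, the first of these was 1.17. Cells other than neurons also hold NKCC1 and their markers differed between libraries, as given below. Their part in the ratio was not tested.

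**Figure D2:**
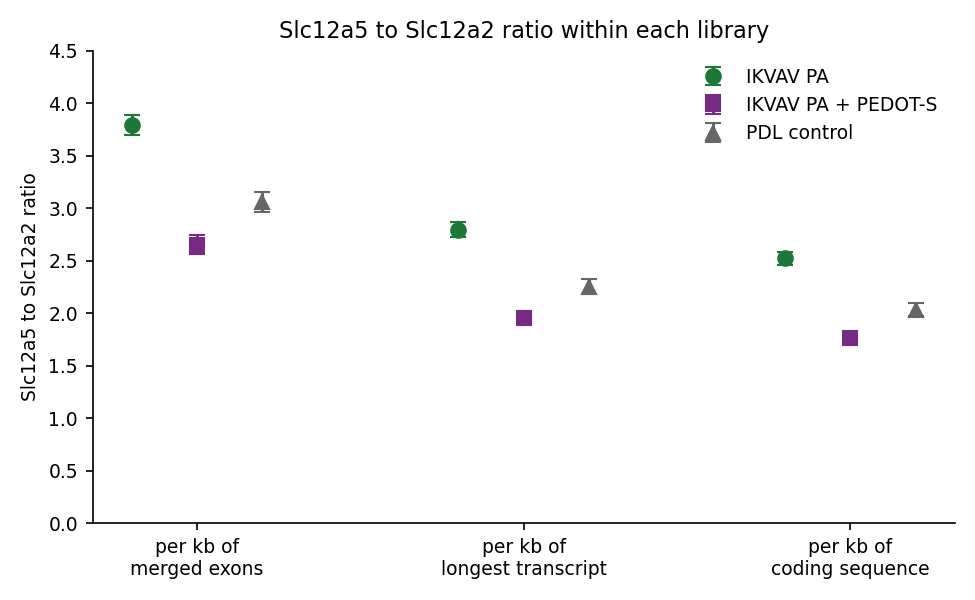
Slc12a5 to Slc12a2 ratio within each library (vertical axis, from 0), per kilobase of merged exons, of the longest transcript and of coding sequence, with bars for the 95% counting interval. The choice of length moves all 3 libraries by 1 common factor, and IKVAV PA lies highest and IKVAV PA + PEDOT-S lowest under each.

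The 3 WNK kinase genes had different patterns. In GRCm38 Wnk1 lies on chromosome 6 (119923969 to 120038672, minus strand), Wnk2 on chromosome 13 (49036303 to 49148014, minus strand) and Wnk3 on chromosome X (151198078 to 151320152, plus strand). Wnk2, which encodes a WNK kinase abundant in brain, was the most highly counted of the 7, with 34749, 21493 and 19304 counts, or 279 CPM in IKVAV PA, 275 CPM in IKVAV PA + PEDOT-S and 242 CPM in the control. It was higher in both scaffold libraries than in the control, by log2 ratios of 0.20 (interval 0.18 to 0.23) and 0.18 (interval 0.15 to 0.21), which share that control. Between the scaffolds Wnk2 was at -0.02 (interval -0.05 to 0.00), and this value was 0.08 after the length and GC correction, which also took the ratio of IKVAV PA to the control from 0.20 to 0.09. Wnk1, the broadly expressed member of the family, had 24999, 14254 and 16533 counts, or 201 CPM, 182 CPM and 208 CPM. It was lowest with PEDOT-S, at -0.19 against the control (interval -0.22 to -0.16) and -0.14 against IKVAV PA (interval -0.17 to -0.11). IKVAV PA lay at -0.05 against the control (interval -0.08 to -0.02). Wnk3, a neuronal WNK kinase known to act on both cotransporters, was nearly level with 12704, 7865 and 7973 counts, or 102 CPM, 100.5 CPM and 100.1 CPM. Its 3 intervals all included no difference. Of its exonic bases 4.94% are shared with another gene, and none are in the other 6 genes. Gene counts cannot separate the isoforms of Wnk1, which has 26 annotated transcripts and a kidney form without the kinase domain.

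Of the kinases that act on the cotransporters directly, Stk39 was higher with PEDOT-S and Oxsr1 was level. Stk39 lies on chromosome 2 (68210445 to 68472268, minus strand) and Oxsr1 on chromosome 9 (119238432 to 119322427, minus strand). Stk39 had 7008, 5028 and 4346 counts, or 56.2 CPM in IKVAV PA, 64.2 CPM in IKVAV PA + PEDOT-S and 54.6 CPM in the control. The log2 ratio of IKVAV PA + PEDOT-S was 0.24 against the control (interval 0.18 to 0.29) and 0.19 against IKVAV PA (interval 0.14 to 0.24), while IKVAV PA against the control lay at 0.04 (interval -0.01 to 0.10). Oxsr1 had 10526, 6638 and 6603 counts, or 84.5 CPM, 84.8 CPM and 82.9 CPM, and its log2 ratios ranged from 0.01 to 0.03. The Stk39 to Oxsr1 count ratio with PEDOT-S was 1.15 times that of the control (interval 1.09 to 1.21).

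By the rule that the bound nearest to no difference must lie beyond 1.5-fold, 0 of the 7 genes differed in any of the 3 comparisons. Among all 13884 genes the share past that bound was 3.96% for IKVAV PA against the control, 4.21% for IKVAV PA + PEDOT-S against the control and 2.35% between the scaffolds. A count of 0 among 7 genes is near these shares. Counting error alone was exceeded by 4, 4 and 3 of the 7, against 57.0%, 57.1% and 59.9% of all genes, so such differences were common at this depth. The median log2 ratio of the 7 was 0.03, 0.01 and -0.02, beside 0.00, 0.00 and 0.01 for all genes.

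**Figure D3:**
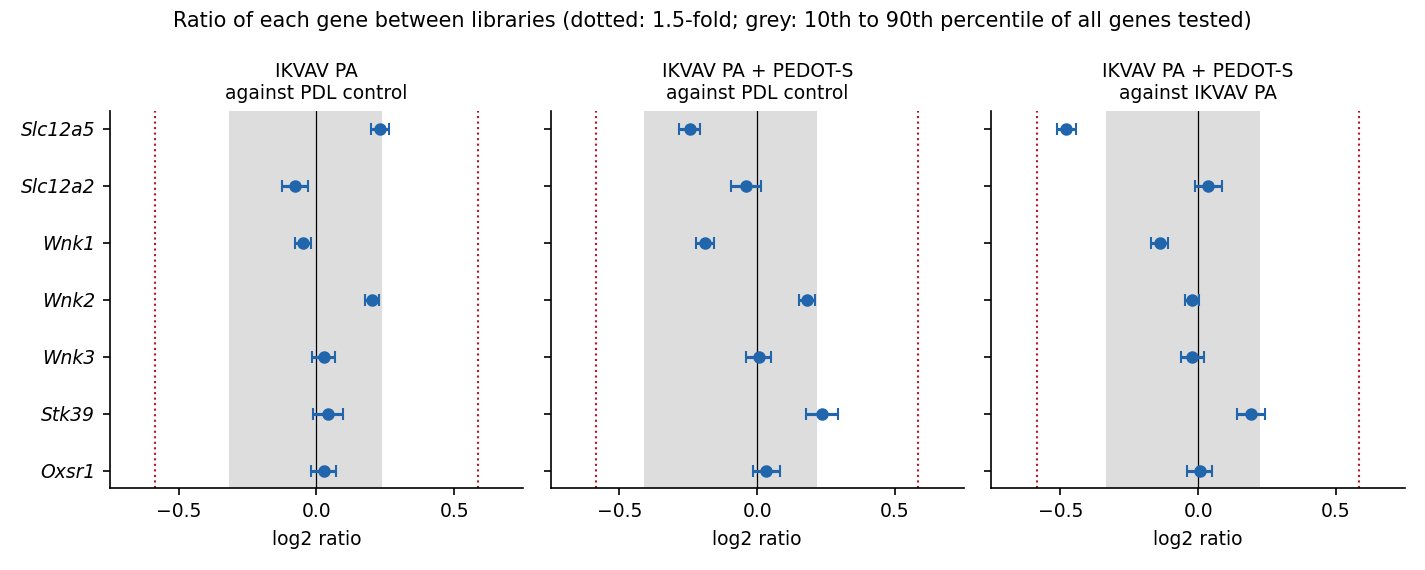
Log2 ratio of each gene in the 3 comparisons, with bars for the 95% counting interval, dotted lines at 1.5-fold and a grey band from the 10th to the 90th percentile of all genes compared. Slc12a5 between the scaffolds, at -0.48, is the point outside the band on the lower side, and Stk39 in IKVAV PA + PEDOT-S against the control, at 0.24, lies just outside it on the upper side.

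Among all genes compared, 6.27% had a lower ratio between the scaffolds than Slc12a5, and 8.15% lay at least as far from no difference in either direction. For IKVAV PA against the control 89.8% of genes lay below Slc12a5, and for IKVAV PA + PEDOT-S against the control 16.3% did. In these comparisons 23.5% and 24.3% of genes lay at least as far from no difference as Slc12a5. Stk39 with PEDOT-S against the control had 91.5% of genes below it. Against the control, 27.2% of genes lay at least as far from no difference as Wnk2 in IKVAV PA, and 34.0% with PEDOT-S. For Wnk1 these shares were 32.3% with PEDOT-S against the control and 43.4% between the scaffolds. Of the 21 pairs that the 7 genes form, 1 had a count ratio whose interval lay wholly beyond 1.5-fold. It did so in the comparison between the scaffolds, and 0 pairs did in either comparison with the control. The intervals of 16, 18 and 16 of the 21 pairs excluded no difference for IKVAV PA against the control, IKVAV PA + PEDOT-S against the control and between the scaffolds. The same shares over pairs of all genes were not computed, so these pair counts have no background to be read against. The pair past 1.5-fold was Slc12a5 to Stk39, whose ratio was 0.629 times as large with PEDOT-S (interval 0.602 to 0.657). It is the largest of the 21, singled out after its value was seen.

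Set against 16 listed pan-neuronal markers, Slc12a5 lay outside their range in each comparison. The 16 markers, such as Map2 and Tubb3, summed to 13431 CPM, 13305 CPM and 13142 CPM in IKVAV PA, with PEDOT-S and in the control. Of the 16, 0 passed the 1.5-fold bound, which is near the shares of all genes given above. Between the scaffolds they ranged from -0.18 (Syn1) to 0.43 (Nefm), against -0.48 for Slc12a5. For IKVAV PA + PEDOT-S against the control they ranged from -0.18 (Nefl) to 0.36, against -0.25. For IKVAV PA against the control they ranged from -0.30 to 0.22 (Rbfox3), against 0.23 for Slc12a5, where the counting intervals of Slc12a5 and Rbfox3 overlap. The length and GC correction gave 0.15 for Slc12a5 in that comparison and was not applied to the markers. The 3 comparisons draw on 3 libraries and are not independent.

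Other cell types also hold NKCC1 and WNK kinases, and their markers differed between libraries. In such mixed cultures fewer cells of a type and less RNA per cell cannot be told apart. Of all genes compared, 3.96% passed the 1.5-fold bound for IKVAV PA against the control. The share was 4.21% for IKVAV PA + PEDOT-S against the control and 2.35% between the scaffolds. With a minimum of 5 CPM these shares fell to 2.25%, 2.47% and 1.09%, so genes of low level passed the bound more often. The 14 astrocyte markers summed to 360.3 CPM in IKVAV PA, 369 CPM in IKVAV PA + PEDOT-S and 527 CPM in the control, with 13 measured. Slc1a2, a glutamate transporter gene and the most abundant of them, made up 161 CPM, 153 CPM and 169 CPM of these sums. The median log2 ratio of the 13 was -1.27 in IKVAV PA and -0.62 with PEDOT-S against the control, with 9 and 6 lower past the 1.5-fold bound and 0 and 1 higher. Between the scaffolds the median was 0.37, with 2 higher and 0 lower. The 15 oligodendrocyte lineage markers summed to 91.0 CPM, 120 CPM and 121 CPM, with 14 measured, but these sums hide differences in both directions. Against the control 3 were higher and 5 lower past the bound in IKVAV PA, and 6 were higher and 4 lower with PEDOT-S, where the log2 ratios ranged from -2.67 to 3.23. Between the scaffolds 6 were higher with PEDOT-S and 2 lower. The 12 progenitor and dividing cell markers summed to 235 CPM, 255 CPM and 455 CPM. Of the 11 measured, 6 were lower past the bound in each scaffold against the control, and 0 passed it between the scaffolds. The 10 meningeal fibroblast and mural cell markers summed to 169 CPM, 101 CPM and 268 CPM. Of the 8 measured, 4 were lower past the 1.5-fold bound in IKVAV PA and 8 with PEDOT-S against the control, and 3 were lower with PEDOT-S than in IKVAV PA. Kcnj8, a pericyte channel gene, was at 0 counts in both scaffold libraries. It did not reach 1 CPM in the control either and was not among the genes compared. Endothelial markers (3 of 6 measured) summed to at most 6.40 CPM, microglia markers (1 of 7) to at most 2.59 CPM and choroid plexus markers (2 of 6) to at most 14.2 CPM in any library. The microglial gene Itgam was at 0 counts in IKVAV PA and the control and did not reach 1 CPM with PEDOT-S. Slc12a2 and Wnk1 were highest in the control, as were the astrocyte, progenitor and fibroblast sums. For Slc12a2 with PEDOT-S against the control, however, the interval included no difference. The lowest values did not all fall in the same library. Slc12a2 and the astrocyte and progenitor sums were lowest in IKVAV PA, and Wnk1 and the fibroblast sum were lowest with PEDOT-S. The part of these cells in the levels of the 7 genes, and in the Slc12a5 to Slc12a2 ratio, was not tested.

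Compared per kilobase of merged exons, the order of the 7 genes was the same in all 3 libraries. In the PDL control Wnk2 was at 28.6 CPM per kilobase, Slc12a5 at 20.2, Oxsr1 at 15.5 and Stk39 at 11.0. Wnk3 followed at 9.45, Wnk1 at 9.09 and Slc12a2 at 6.63 CPM per kilobase. With PEDOT-S the gap between Slc12a5 and Oxsr1 was small, at 17.1 and 15.9 CPM per kilobase. The order depends on the length used. Per kilobase of coding sequence Oxsr1 came first in every library whereas Slc12a5 had rank 2 in IKVAV PA and the control and rank 4 with PEDOT-S. No spread over samples is available for judging neighbours in this order.

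None of the other pathway genes measured had an interval wholly beyond 1.5-fold. Of all genes compared, 3.96% did for IKVAV PA against the control, 4.21% for IKVAV PA + PEDOT-S against the control and 2.35% between the scaffolds. For lists this small, here and in the paragraphs that follow, a count of 0 is near these shares. Of the 7 other members of the SLC12 family 4 were measured and 0 passed the bound in any comparison. Slc12a4, which encodes KCC1, was at 10.7 CPM, 11.0 CPM and 13.2 CPM in IKVAV PA, with PEDOT-S and in the control, and Slc12a7, which encodes KCC4, at 5.15 CPM, 5.40 CPM and 7.16 CPM. Against the control Slc12a4 was at -0.30 in IKVAV PA and -0.26 with PEDOT-S, and Slc12a7 at -0.47 and -0.41. Between the scaffolds their intervals included no difference (-0.08 to 0.17 and -0.11 to 0.25). Slc12a9 was at 14.3 CPM, 13.1 CPM and 13.0 CPM.

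Of 8 partners and regulators of the WNK kinases all were measured and 0 passed the bound. Their median log2 ratio was -0.02 for IKVAV PA against the control, 0.03 for IKVAV PA + PEDOT-S against the control and 0.07 between the scaffolds. Cab39, which encodes the SPAK and OSR1 activator MO25, was at 0.11 with PEDOT-S against the control. Cul3, the scaffold of the ubiquitin ligase that degrades WNK kinases, was at -0.16 in IKVAV PA and 0.03 with PEDOT-S against the control. Klhl2, which brings WNK kinases to that ligase, was at -0.04 and 0.02. Nedd4l, another ubiquitin ligase of ion transport, was at 0.07 and 0.14.

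Of 10 partners and regulators of KCC2 all were measured and 0 passed the bound, with medians of 0.03, 0.00 and 0.09. Neto2, which encodes a membrane protein that binds KCC2, was at 0.16 between the scaffolds, opposite in sign to Slc12a5. Grik2, which encodes a kainate receptor subunit that binds KCC2, had the lowest ratio of the list between the scaffolds, at -0.24 (interval -0.28 to -0.20), and was at 0.19 in IKVAV PA against the control, the same signs as Slc12a5. With PEDOT-S against the control Grik2 was near no difference, at -0.05 (interval -0.09 to -0.004). It is named after its value was seen. Ntrk2, the receptor through which BDNF alters KCC2 levels, was at 0.06, and Ckb, a creatine kinase that binds KCC2, was at 0.08 between the scaffolds. In IKVAV PA against the control Ckb had the lowest ratio of the list, at -0.24, opposite in sign to Slc12a5. The regulators whose motifs were searched above, and Rest, are named outside the rule for naming genes. Usf1 was at 0.11 (interval 0.07 to 0.15) and Usf2 at 0.14 (interval 0.07 to 0.21) between the scaffolds. In IKVAV PA against the control, where Slc12a5 was at 0.23, Usf1 was at 0.02 (interval -0.02 to 0.06) and Usf2 at 0.21 (interval 0.13 to 0.28). With PEDOT-S against the control, where Slc12a5 was at -0.25, they were at 0.13 (interval 0.08 to 0.17) and 0.35 (interval 0.26 to 0.43). Egr4 was at 0.26 (interval 0.05 to 0.47) between the scaffolds, from 3.47 CPM in IKVAV PA and 4.15 CPM with PEDOT-S. Against the control Egr4 was at 0.04 in IKVAV PA (interval -0.18 to 0.27) and 0.30 with PEDOT-S (interval 0.06 to 0.54). Rest, which encodes a repressor of neuronal genes including Slc12a5, was at -0.15 between the scaffolds (interval -0.26 to -0.03). Against the control Rest was at 0.07 in IKVAV PA (interval -0.03 to 0.18) and -0.07 with PEDOT-S (interval -0.20 to 0.05). The part of these factors in the Slc12a5 level was not tested.

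Of 15 other genes of chloride and bicarbonate transport 14 were measured and 0 passed the bound. Their median log2 ratio was 0.03 for IKVAV PA against the control, -0.08 for IKVAV PA + PEDOT-S against the control and -0.07 between the scaffolds, where 10 of 14 were negative. The medians of all genes were 0.00, 0.00 and 0.01 in the same order. The 4 most abundant of the 14 are vesicular chloride-proton exchangers and a subunit of the volume-regulated anion channel. Between the scaffolds Clcn4, with 11.5% of its exonic bases shared, was at 0.02, Clcn6 at 0.24, Clcn3 at -0.03 and the channel subunit Lrrc8b at -0.04. Named after their values were seen, 3 genes lay nearer to Slc12a5. They are Slc4a10, a bicarbonate transporter of neurons (-0.38, interval -0.45 to -0.30), Clcn2, a chloride channel (-0.38, interval -0.47 to -0.29), and Slc4a2, an anion exchanger (-0.40, interval -0.55 to -0.26). Slc4a2 was also at -0.67 with PEDOT-S against the control (interval -0.82 to -0.52), with the nearer bound inside 1.5-fold.

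**Figure D4:**
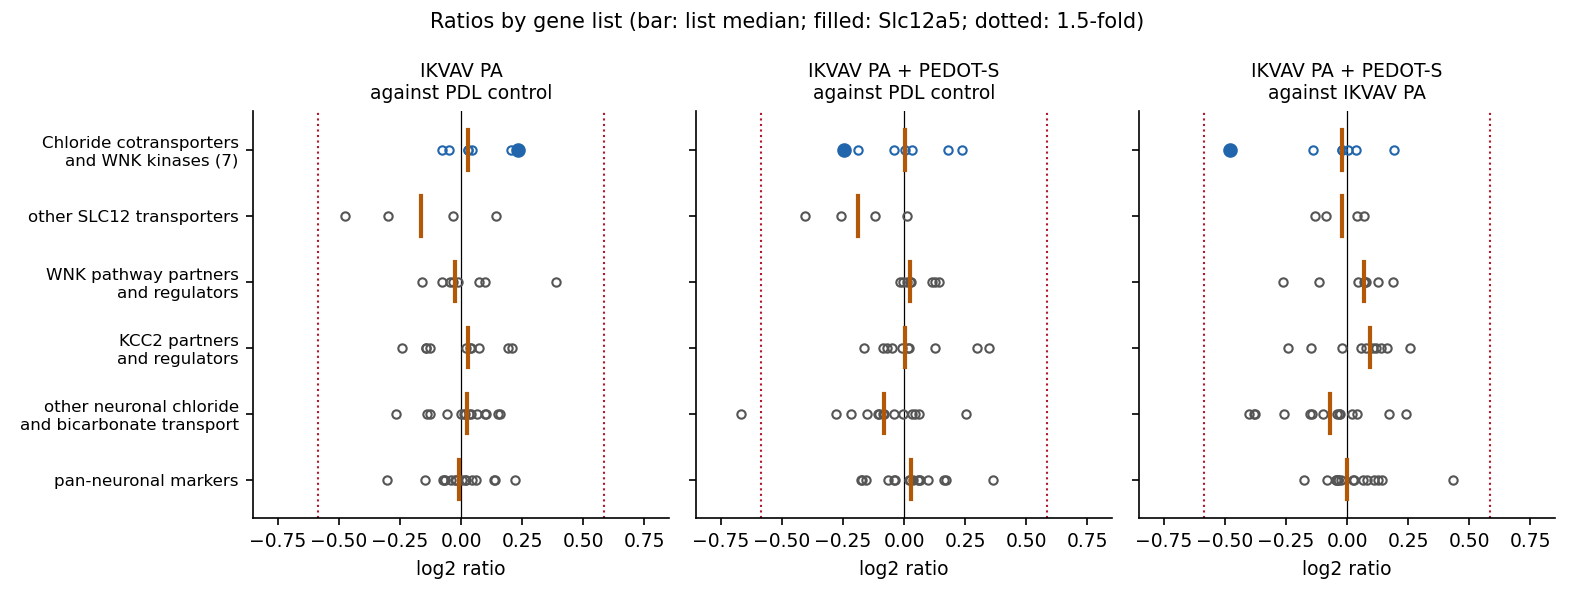
Log2 ratios of the measured genes in 6 gene lists (rows) for the 3 comparisons (columns), with 1 circle per gene, a bar at each list's median and dotted lines at 1.5-fold. The filled circle is Slc12a5, which lies outside the range of the 16 pan-neuronal markers in each column. For IKVAV PA against the control the margin is narrow, at 0.23 against a highest marker value of 0.22, with overlapping counting intervals.

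Genes with the same pattern as Slc12a5 over the 3 libraries were few. Of 4234 protein-coding genes at 1/3 to 3 times its level, 34 (0.803%) lay within a distance of 0.1 in centred log2 CPM. The nearest 3 were Ppfibp1, at 72.0 CPM, 52.8 CPM and 61.9 CPM in IKVAV PA, with PEDOT-S and in the control, Nrbp2, at 105 CPM, 73.9 CPM and 87.1 CPM, and Ryr3, a calcium release channel, at 110 CPM, 80.2 CPM and 96.5 CPM. For Slc12a2, with its small differences, 2470 of 5864 genes (42.1%) lay within that distance, the nearest being C2cd2l, Noc4l and Chmp2b. With 3 libraries such likeness is a description.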

How the data were processed

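Whole-number gene counts were deposited for 3 RNA-seq libraries, 1 per group, and the authors' values are not normalised, per the file headers. Per the submitters' processing notes the build was mm10 and the tools included STAR 2.7.5, cutadapt 4.2, DESeq2 1.14.1 and HTSeq 2.0.2. The annotation release and the strand setting are not stated there, so reads of antisense partners cannot be told apart. Per the labels' protocols the library kit was for total RNA (TruSeq), but polyA RNA is entered as the molecule.

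Total counts were 124425958, 79057998 and 78993105 in IKVAV PA, with PEDOT-S and in the control. Library sizes were scaled by edgeR 4.0.16 (R 4.3.3) with TMM, with factors of 1.00, 0.990 and 1.01. Ratios have exact Clopper-Pearson binomial intervals of a count given the sum of both, computed with scipy 1.17.1, and ratios of ratios have exact conditional intervals of the odds ratio. Reads are not independent molecules, so intervals cover counting error only. Symbols, lengths and shared exonic bases came from GENCODE M21 (GRCm38), and start sites from RefSeq. On simulated data with 13884 genes, 50 genes were given a 2-fold difference, and 47, 45 and 48 of them were called in IKVAV PA against the control, IKVAV PA + PEDOT-S against the control and between the scaffolds. The simulated counts held counting error only, so spread between cultures was not covered.

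The genes and lists were chosen with earlier results of these data known. All 7 genes are named, then up to 4 genes of a list, first those past the bound and then the most abundant, and the 3 nearest genes in pattern. Genes named as the ends of a range or for 0 counts, and those marked in the text, were named after their values were seen, and 2 genes that it would name are not reported here. Alternatives were scaling by total counts, by DESeq2 1.42.0 size factors or by pan-neuronal genes, thinning, a prior count of 2, other bounds and filters, and other gene lengths.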

Additional observations from a re-analysis of the deposited data

How the results depend on the processing

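Slc12a5 kept its direction in all 3 comparisons under every alternative run, and 0 of the 7 genes passed the 1.5-fold bound under any scaling, thinning, a 2-fold bound or the length and GC correction, whereas 4, 4 and 3 exceeded counting error alone. The length and GC correction gave 0.15 for Slc12a5 in IKVAV PA against the control and -0.42 between the scaffolds, and 1.17 for the Slc12a5 to Slc12a2 ratio of IKVAV PA over the control. That ratio within IKVAV PA, with PEDOT-S and in the control was 2.52, 1.77 and 2.03 per kilobase of coding sequence and 2.79, 1.96 and 2.25 per kilobase of the longest transcript, in place of 3.79, 2.65 and 3.06. Genes near no difference changed sign with the scaling. Wnk3 in IKVAV PA + PEDOT-S against the control went from 0.01 to -0.02 with total counts, and Oxsr1 between the scaffolds from 0.01 to -0.01. With DESeq2 size factors Wnk2 and Wnk3 between the scaffolds went from -0.02 to 0.01. The share of all genes past the bound was 2.25%, 2.47% and 1.09% with a minimum of 5 CPM in place of 3.96%, 4.21% and 2.35%. Between the scaffolds it was 4.15% without a filter and 1.49% for protein-coding genes alone. The cause of these differences was not tested. No paired analysis was possible because each group has 1 library. Depth did not limit the 7 genes, each with at least 4346 counts in every library.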

Other observations

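Slc12a3, the thiazide-sensitive sodium-chloride cotransporter of the kidney, did not reach 1 CPM in any library and was not among the genes compared. It had 54 counts in IKVAV PA (0.433 CPM), 11 in IKVAV PA + PEDOT-S (0.141 CPM) and 11 in the PDL control (0.138 CPM). The log2 ratio was 1.65 for IKVAV PA against the control (counting interval 0.70 to 2.73) and -1.62 between the scaffolds (interval -2.71 to -0.67). None of its exonic bases are shared with another gene. It was named after its values were seen.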
